A study of Mus musculus with 12 samples.

Results

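The Rab GTPases are the family of small GTP-binding proteins that give each membrane compartment of the secretory and endocytic routes its identity. They were taken here as all protein-coding genes whose mouse symbol is Rab followed by a number and at most 1 letter and 1 further digit. The rule found 59 genes among the 55416 gene IDs listed, and 54 of them passed the low-count filter and are among the 17702 genes tested. Rab3c, Rab7b, Rab9b, Rab27b and Rab40b did not pass it, so counts over tested Rab genes leave these 5 out. The names were chosen by symbol and not by any measured value.

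The study sequenced poly-A RNA of mouse embryonic stem cells (E14Tg2a.4 line) carrying Rpl31, a protein of the large ribosomal subunit, fused to FLAG, TEV and AviTag sequences. Ribosomes at the endoplasmic reticulum (ER) were biotinylated by ALIBi, a proximity-labelling tool, and pulled down. The RNA they carried is called ER-bound RNA, and RNA of the same lysates before the pulldown is called whole-cell RNA. Cells had received Lsg1 siRNA, against a GTPase of late 60S ribosomal subunit maturation, or scramble siRNA, so each siRNA has an ER-bound and a whole-cell group, 4 groups in all, of 3 biological replicates each. All 4 groups shared the line, the tagged ribosomal protein and the labelling at the ER, so none is an untagged or unlabelled control.

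As background, Rab proteins switch between a GDP-bound and a GTP-bound form. Exchange factors load GTP and thereby switch a Rab on, TBC-domain proteins stimulate its hydrolysis and switch it off, and effectors such as tethers and motor adaptors bind the GTP form. Rab proteins have no signal sequence and are made on cytosolic ribosomes. They are anchored afterwards, when an escort protein (Chm or Chml) presents the new protein to the geranylgeranyl transferase (Rabggta and Rabggtb), which attaches lipids to cysteines at the very C-terminus, and Gdi2 later lifts them off membranes.

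The ends of coding sequences below are shown because they hold these cysteines, the membrane anchor that sets Rab genes apart from genes with an ER signal sequence. Each is the last 10 codons and the stop codon, in transcript direction from 5′ to 3′, with the cysteine codons in capitals, from the GENCODE M21 transcripts on the GRCm38 build. Rab10 (chromosome 12) ends in a pair of cysteines, Rab4a (chromosome 8) and Rab4b (chromosome 7) in cysteine, another residue and cysteine, and Rab5b (chromosome 10) and Rab17 (chromosome 1) in a pair of cysteines before further residues. Rab8a (chromosome 8) and Rab8b (chromosome 9) have a single cysteine, the fourth residue from the end.
Rab10: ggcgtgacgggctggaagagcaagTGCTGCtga
Rab4a: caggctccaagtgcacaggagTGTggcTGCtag
Rab4b: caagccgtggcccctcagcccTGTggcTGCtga
Rab5b: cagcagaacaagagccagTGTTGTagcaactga
Rab17: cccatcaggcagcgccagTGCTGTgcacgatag
Rab8a: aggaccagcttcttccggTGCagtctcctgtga
Rab8b: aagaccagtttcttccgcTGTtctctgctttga
Of the 59 genes, 20 ended in the pattern of Rab4a, 15 in that of Rab10, 15 in that of Rab5b and 9 in that of Rab8a.

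Library depth lay between 38092178 and 56522114 counts on genes. The 10 pluripotency genes set as markers of the labelled cells summed to 10400 to 11300 CPM (counts relative to the TMM-scaled library size) in ER-bound and 8357 to 8525 CPM in whole-cell libraries. The 7 fibroblast or feeder markers, 1 of them at 0 in every library, summed to 45.4 to 55.8 CPM in ER-bound and 24.9 to 27.9 CPM in whole-cell libraries, and their part in the results below was not tested. The 8 ER lumen chaperone genes, which stand for proteins made at the ER, were all higher in ER-bound RNA with scramble siRNA, with a median log2 fold of 0.91. Lsg1 averaged 43.5 ± 8.62 CPM with Lsg1 siRNA and 148 ± 4.46 CPM with scramble siRNA in ER-bound RNA, and 98.0 ± 15.1 CPM with Lsg1 siRNA and 143 ± 6.38 CPM with scramble siRNA in the whole-cell libraries (SD, 3 libraries a group). The whole-cell difference did not pass the test (adjusted p = 0.245). A gene given only by its ID, ENSMUSG00000119584.1, stood at 18470 CPM in replicate 3 of ER-bound scramble siRNA and at 15600 CPM in replicate 3 of whole-cell Lsg1 siRNA, against 1115 to 4143 CPM in the other 10 libraries. Counts of Rab genes are therefore also given without these 2 libraries.

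Rab transcripts in these stem cells ranged from almost absent to abundant, led by the housekeeping Rabs of the early secretory route and of late endosomes. Averaged over the libraries, 9 genes had at least 100 CPM, 23 had 10 to under 100 CPM, 15 had 1 to under 10 CPM and 12 had less than 1 CPM. Rab1a, which drives transport between the ER and the Golgi, alone held 12.9% of the summed CPM of the Rab genes in whole-cell scramble siRNA libraries, and Rab7, which drives fusion of late endosomes with lysosomes, held 10.0%. The sum over Rab genes was 2360 ± 39.5 CPM in ER-bound Lsg1 siRNA libraries, 2362 ± 38.7 CPM in ER-bound scramble siRNA libraries, 2280 ± 21.5 CPM in whole-cell Lsg1 siRNA libraries and 2273 ± 11.3 CPM in whole-cell scramble siRNA libraries (SD, n = 3 each).

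Per kilobase of transcript, which allows genes to be set beside each other, Rab1a had a mean level of 114 CPM per kb in ER-bound and 111 CPM per kb in whole-cell scramble siRNA libraries. Rab7 followed with 109 CPM per kb in ER-bound and 105 CPM per kb in whole-cell libraries. The most abundant early endosomal member was Rab5c, needed for fusion of early endosomes, with 64.7 CPM per kb in ER-bound and 62.0 CPM per kb in whole-cell libraries. Among recycling and exocytic Rabs, Rab14, which acts between the trans-Golgi network and endosomes, led with 37.6 CPM per kb in ER-bound and 38.6 CPM per kb in whole-cell libraries. The leading members of the other roles were lower. Rab23, a regulator of hedgehog signalling and cilia, had 14.6 CPM per kb in ER-bound and 12.4 CPM per kb in whole-cell libraries, and Rab27a, known from exocytosis of lysosome-related organelles, had 6.69 CPM per kb in ER-bound and 6.63 CPM per kb in whole-cell libraries. The 5 genes that did not pass the filter had at most 0.164 CPM in any library.

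**Figure D1:**
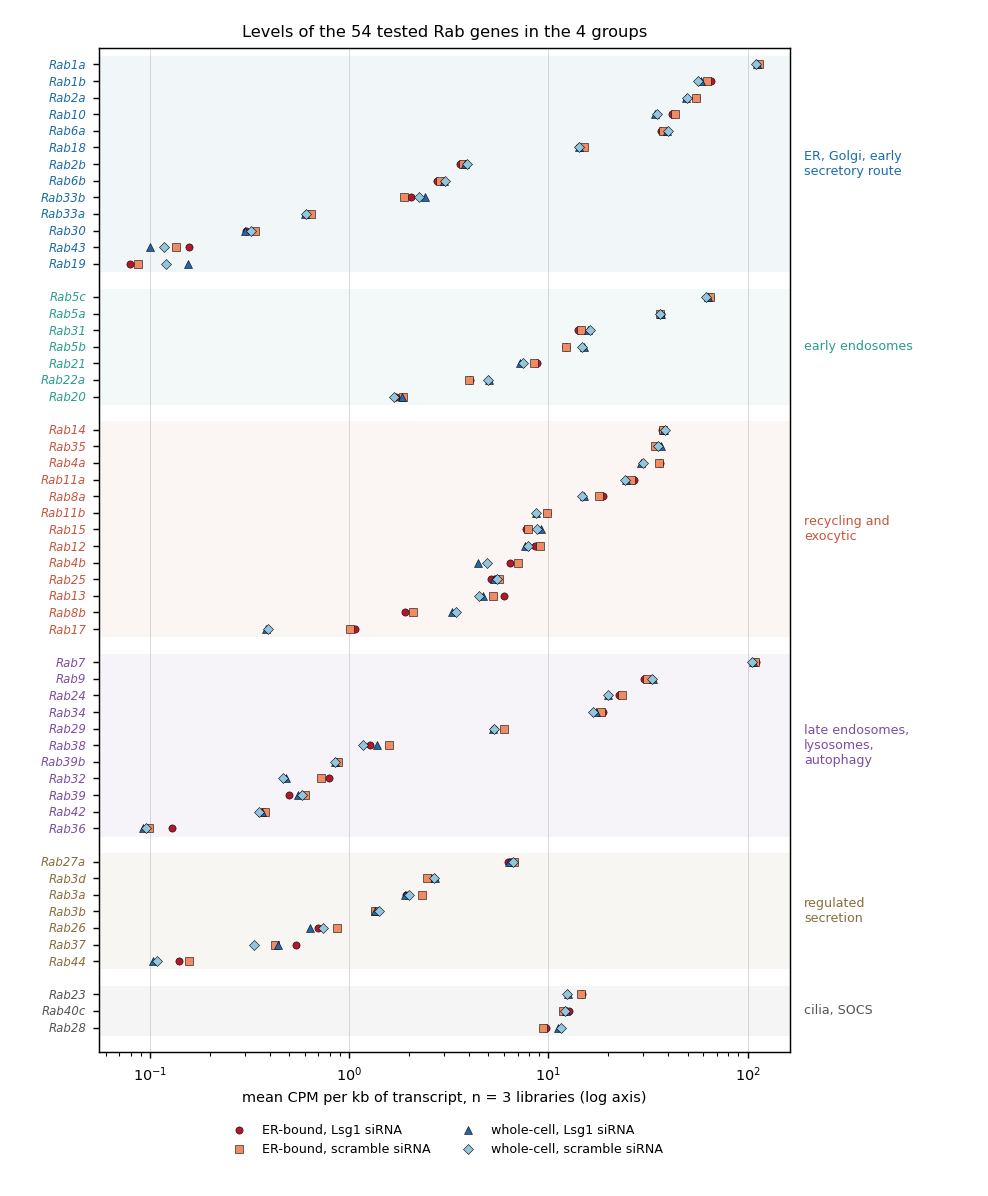
Mean level of each of the 54 tested Rab genes in CPM per kb of transcript (log axis) in the 4 groups (n = 3 libraries each), sorted within roles. The markers of the 4 groups lie close together for most genes, while the genes themselves span from Rab1a, at 114 CPM per kb in ER-bound scramble siRNA libraries, to members near 0.1 CPM per kb.

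The first comparison asked which Rab transcripts were relatively more or less frequent on ER-labelled ribosomes than in the cell's whole poly-A RNA. In bulk RNA of this kind, fewer cells of a type and less RNA per cell cannot be told apart, and each value is a share of its library and not an amount per cell. Rab transcripts stayed close to their whole-cell share. With scramble siRNA, 16 of the 54 tested Rab genes were higher in ER-bound RNA (edgeR's quasi-likelihood test, Benjamini-Hochberg adjusted p under 0.05), where 29.8% of all 17702 tested genes were, and 8 were lower, where 29.1% of all genes were. The other 30 did not pass. The share called in either direction over all genes was 58.9%. The median log2 fold of the tested Rab genes was 0.084, beside 0.029 over all tested genes, and 50 of the 54 lay within 0.5 of 0 on the log2 scale, as did 71.9% of all genes. All 24 called genes went the same way in all 3 same-numbered pairs. The calls rest on these same libraries, so that agreement is no separate result. The libraries of the fractions did not overlap for 31 of the 54, beside 63.9% of all genes. Without the 2 libraries named above, 15 were higher and 7 lower (shares over all genes not given for this fit).

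The pattern was nearly the same with Lsg1 siRNA. That comparison shares no library with the one above, but both came from the same fit. Its scaling, filter and estimate of the spread were taken over all 12 libraries. With Lsg1 siRNA, 17 Rab genes were higher (background 30.6%) and 10 lower (background 29.8%), and 27 did not pass. Over all genes, 60.3% were called in either direction. The median log2 fold was 0.032, beside 0.022 over all tested genes, and 28 of the 54 did not overlap between fractions (background 64.4%). Without the same 2 libraries, 13 were higher and 11 lower (shares over all genes not given for this fit). With both siRNAs, 15 Rab genes were higher (background 26.1%) and 8 lower (background 26.5%), and none was called in opposite directions. Rab38 was called with scramble siRNA alone, and Rab9, Rab11a, Rab19 and Rab43 with Lsg1 siRNA alone, which by itself does not show a difference between the siRNAs. Over the 37 Rab genes with a mean of at least 5 CPM, folds with Lsg1 and with scramble siRNA went together with Pearson's r 0.974 and Spearman's rho 0.968 on the log2 scale, given as a description, and their largest difference was 0.149, for Rab29. Over all 54 tested Rab genes, Pearson's r was 0.910 and Spearman's rho 0.853.

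With scramble siRNA the folds varied with transcript length and GC content, with the same signs as over all genes. Across the 54 tested Rab genes with scramble siRNA, Spearman's rho of the log2 fold was -0.28 with transcript length, -0.33 with the length of the 3′ untranslated region and 0.32 with GC content, beside -0.33 with transcript length and 0.24 with GC content over 17652 genes. With Lsg1 siRNA the values for the 54 were -0.13 with transcript length, -0.19 with the length of the 3′ untranslated region and 0.31 with GC content, beside -0.29 with transcript length and 0.23 with GC content over all genes. These points share libraries and are a description. Length of Rab genes was that of the principal coding transcript, which need not be the transcript measured over all genes. The sizes of the length correlations of Rab genes and of all genes are therefore not compared. With an offset that removes the trends with GC content and length over all genes, 15 Rab genes were higher (background 28.7%) and 16 lower (background 30.9%) with Lsg1 siRNA, and 12 were higher (background 27.5%) and 15 lower (background 29.5%) with scramble siRNA. With scramble siRNA, of the 16 called higher without the offset 8 were called higher with it, and of the 8 called lower 6 were. Called with both siRNAs, with and without the offset, were Rab4b, Rab8a, Rab10, Rab11b, Rab17, Rab21, Rab23 and Rab32 as higher, and Rab5b, Rab6a, Rab8b, Rab15, Rab31 and Rab33b as lower. The share of all genes that met all these calls is not given here, so this list has no background beside it. With library totals in place of TMM, which moved the median of all genes to 0.106, 24 Rab genes were higher (background 36.4%) and 4 lower (background 23.4%) with scramble siRNA. With Lsg1 siRNA library totals gave 22 higher (background 37.8%) and 4 lower (background 23.4%), at a median of all genes of 0.107.

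**Figure D2:**
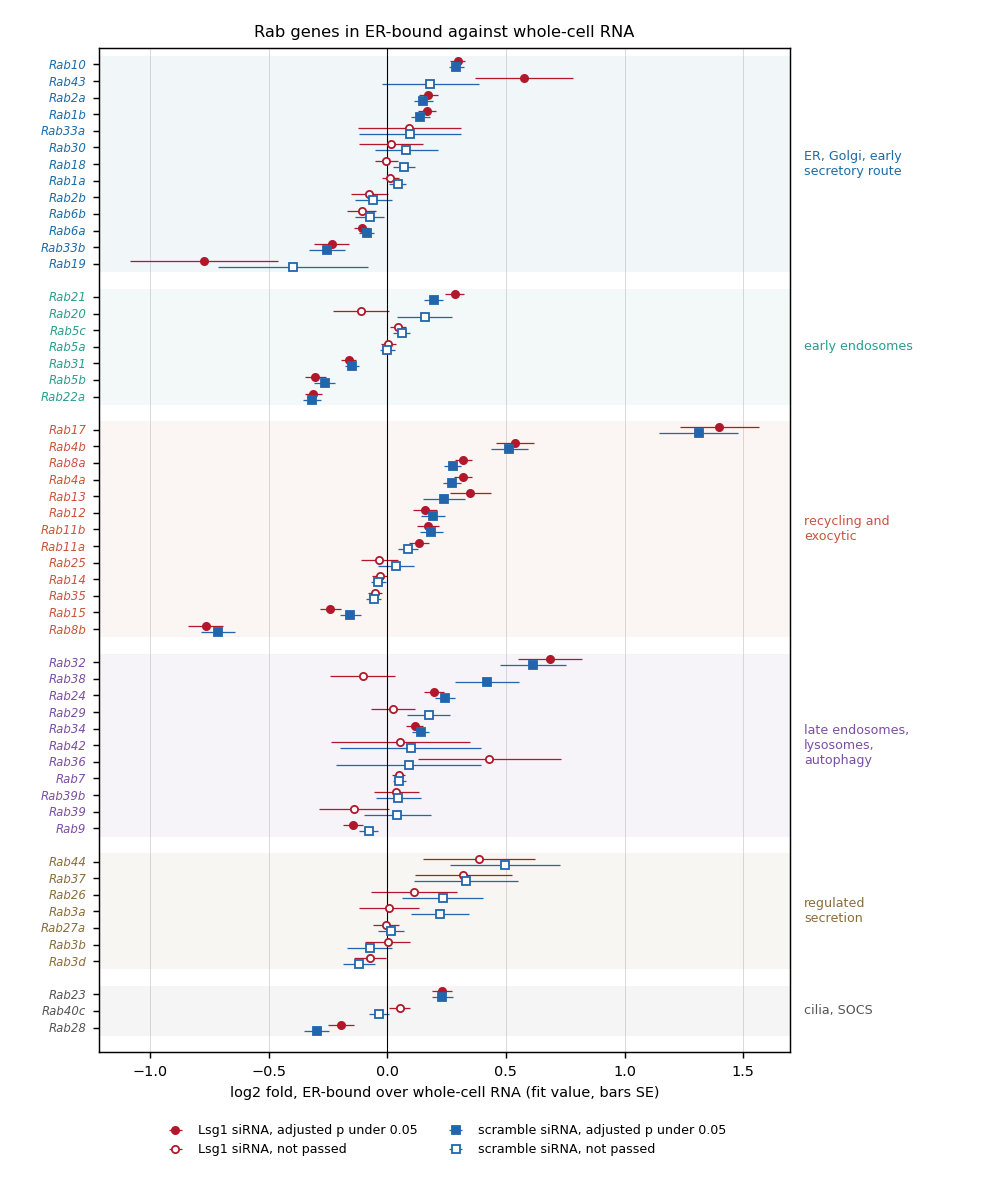
Log2 fold of each of the 54 tested Rab genes, ER-bound over whole-cell RNA, with Lsg1 siRNA (circles) and scramble siRNA (squares); bars are the SE of the fit and filled markers passed an adjusted p under 0.05. Most genes lie between -0.5 and 0.5, with Rab8b at -0.71 and Rab17 at 1.31 (scramble siRNA) at the ends. The markers of the 2 siRNAs fall close together for most genes. They lie further apart for some genes with few reads, such as Rab38 (-0.10 with Lsg1 and 0.42 with scramble siRNA).

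Among the 13 Rabs of the ER, the Golgi and the early secretory route, 3 were higher with scramble siRNA (Rab1b, Rab2a and Rab10), 2 were lower (Rab6a and Rab33b) and 8 did not pass, with a median log2 fold of 0.070. Shares over all genes were 29.8% higher and 29.1% lower, and the roles were not tested against them. Rab10, which shapes ER tubules and drives exocytosis, had 155, 151 and 147 CPM in ER-bound scramble siRNA libraries, against 124, 124 and 123 CPM in whole-cell scramble siRNA libraries. The lowest ER-bound library lay above the highest whole-cell library, and the log2 fold was 0.29 ± 0.032 SE with an adjusted p of 2.73e-07. With Lsg1 siRNA it had 151, 146 and 145 CPM in ER-bound RNA, against 124, 118 and 118 CPM in whole-cell RNA, again with no overlap and a log2 fold of 0.30 ± 0.032 SE. Part of Rab10 overlaps an antisense gene, Rab10os, on the other strand. Rab33b, a Golgi Rab that binds the autophagy factor Atg16l1, had 6.09, 7.00 and 6.64 CPM in ER-bound scramble siRNA libraries, against 7.70, 8.37 and 7.48 CPM in whole-cell scramble siRNA libraries. All 3 ER-bound libraries were below the whole-cell ones (log2 fold -0.25 ± 0.077 SE, adjusted p = 0.00847), and the call was lost with library totals (adjusted p = 0.0651).

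The early secretory Rab with the most reads, Rab1a, had 318, 295 and 297 CPM in ER-bound scramble siRNA libraries, against 297, 299.6 and 286 CPM in whole-cell scramble siRNA libraries. These libraries overlapped, and the log2 fold of 0.04 ± 0.035 SE did not pass (adjusted p = 0.301). Its close relative Rab1b had 123, 115 and 119.7 CPM in ER-bound scramble siRNA libraries, against 107, 106 and 111 CPM in whole-cell scramble siRNA libraries. The groups did not overlap, with a log2 fold of 0.14 ± 0.039 SE and an adjusted p of 0.00462, but with the GC and length offset Rab1b was called lower instead, at -0.11 (adjusted p = 0.00586), and without replicate 1 of whole-cell scramble siRNA the adjusted p was 0.0549. Rab2a, of transport between the Golgi and the ER, had a log2 fold of 0.15 ± 0.039 SE (adjusted p = 0.00296) that did not pass with the offset (0.06, adjusted p = 0.16). Rab6a, of transport from endosomes through the Golgi back to the ER, had a log2 fold of -0.09 ± 0.031 SE (adjusted p = 0.0239). Its call was lost with library totals (adjusted p = 0.853), without the low-count filter (adjusted p = 0.177), and without replicate 2 of whole-cell or replicate 3 of ER-bound scramble siRNA (adjusted p = 0.0572 and 0.0551). Rab18, which acts at the ER and on lipid droplets, did not pass at 0.07 ± 0.047 SE, and with the offset it stood at 0.56 (adjusted p = 2.55e-08).

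Of the 7 Rabs of early endosomes, 1 was higher (Rab21) and 3 were lower (Rab5b, Rab22a and Rab31), with a median log2 fold of 0.000. Shares over all genes were 29.8% higher and 29.1% lower. Rab22a, which sorts cargo from early endosomes towards the trans-Golgi network and recycling, had 29.3, 28.5 and 28.0 CPM in ER-bound scramble siRNA libraries, against 35.8, 35.8 and 35.3 CPM in whole-cell scramble siRNA libraries. All ER-bound libraries were below all whole-cell libraries, with a log2 fold of -0.32 ± 0.036 SE and an adjusted p of 4.94e-07. With the GC and length offset the log2 fold was 0.02 (adjusted p = 0.733), and with Lsg1 siRNA it was -0.31 ± 0.036 SE without and -0.003 with the offset.

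Rab5b, which with Rab5a and Rab5c drives fusion of early endosomes, had 39.9, 37.9 and 38.9 CPM in ER-bound scramble siRNA libraries, against 48.7, 46.6 and 45.0 CPM in whole-cell scramble siRNA libraries. The fractions did not overlap (log2 fold -0.26 ± 0.044 SE, adjusted p = 4.83e-05), and with the offset the log2 fold was -0.33 (adjusted p = 1.89e-06). Rab5c had 123, 121 and 128 CPM in ER-bound scramble siRNA libraries, against 118, 119 and 119 CPM in whole-cell scramble siRNA libraries. Its ER-bound libraries were all slightly above its whole-cell libraries, but the log2 fold of 0.06 ± 0.035 SE did not pass (adjusted p = 0.152), and with the offset it was called lower, at -0.17 (adjusted p = 0.00029). Rab31, an early endosome and trans-Golgi Rab, had a log2 fold of -0.15 ± 0.03 SE (adjusted p = 0.000358), which did not pass with library totals (adjusted p = 0.0738). Rab21, known from integrin endocytosis, had one of 0.20 ± 0.04 SE (adjusted p = 0.00034).

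Recycling and exocytic Rabs held both ends of the family. Of 13, 7 were higher (Rab4a, Rab4b, Rab8a, Rab11b, Rab12, Rab13 and Rab17) and 2 were lower (Rab8b and Rab15), with a median log2 fold of 0.19. Shares over all genes were 29.8% higher and 29.1% lower. Rab8b had 10.3, 10.2 and 9.15 CPM in ER-bound scramble siRNA libraries, against 16.7, 16.0 and 16.2 CPM in whole-cell scramble siRNA libraries. With Lsg1 siRNA it had 9.54, 9.78 and 7.83 CPM in ER-bound RNA, against 15.8, 14.5 and 16.1 CPM in whole-cell RNA. Every ER-bound library was below every whole-cell library with both siRNAs, with log2 folds of -0.77 ± 0.074 SE with Lsg1 siRNA (adjusted p = 5.37e-08) and -0.71 ± 0.072 SE with scramble siRNA (adjusted p = 1.04e-07). Rab8b was the lowest of the Rab genes tested with scramble siRNA.

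Rab8a, the close relative of Rab8b, went the other way. Both proteins direct vesicles to the plasma membrane and to cilia. Rab8a had 85.0, 79.9 and 78.8 CPM in ER-bound scramble siRNA libraries, against 67.3, 67.9 and 66.3 CPM in whole-cell scramble siRNA libraries. With Lsg1 siRNA the values were 86.0, 85.5 and 85.5 CPM in ER-bound RNA, against 66.0, 68.1 and 71.6 CPM in whole-cell RNA. No ER-bound library fell within the range of the whole-cell ones, and the log2 folds were 0.32 ± 0.037 SE with Lsg1 siRNA (adjusted p = 5.04e-07) and 0.28 ± 0.037 SE with scramble siRNA (adjusted p = 3.72e-06). With the GC and length offset, Rab8a stood at 0.35 (adjusted p = 1.84e-07) and Rab8b at -0.44 (adjusted p = 3.01e-05) with scramble siRNA.

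Rab4a and Rab4b, which return receptors quickly from early endosomes to the surface, were both higher. Rab4b had 8.73, 8.20 and 8.29 CPM in ER-bound scramble siRNA libraries, against 5.27, 6.10 and 6.19 CPM in whole-cell scramble siRNA libraries. This was the largest log2 fold among Rab genes with at least 5 CPM, 0.51 ± 0.078 SE (adjusted p = 1.63e-05), with no overlap of the libraries, and 0.54 ± 0.08 SE with Lsg1 siRNA. Rab4a had 52.3, 50.8 and 50.5 CPM in ER-bound scramble siRNA libraries, against 42.6, 40.9 and 43.6 CPM in whole-cell scramble siRNA libraries. It did not overlap either, at 0.27 ± 0.038 SE (adjusted p = 6.37e-06). With the offset, Rab4b stood at 0.25 (adjusted p = 0.00665) and Rab4a at 0.04 (adjusted p = 0.403), so the call of Rab4a was lost with scramble siRNA; with Lsg1 siRNA and the offset it was 0.09 and passed (adjusted p = 0.0328). Rab4b shares 1280 exon bases on the same strand with another annotated gene, Gm21983. That gene had 19 reads over all libraries against 3735 for Rab4b. How reads on the shared bases were counted was not tested.

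Rab13, known from tight junctions and exocytosis, had 6.11, 5.25 and 6.24 CPM in ER-bound scramble siRNA libraries, against 5.11, 4.75 and 5.03 CPM in whole-cell scramble siRNA libraries. The groups did not overlap, and the log2 fold was 0.24 ± 0.089 SE with an adjusted p of 0.0274. That call did not pass with DESeq2 (adjusted p = 0.0727) or the offset (adjusted p = 0.483), nor without any 1 of replicates 1 and 3 of ER-bound and replicates 1, 2 and 3 of whole-cell scramble siRNA (adjusted p 0.0583 to 0.129). Rab15, a recycling Rab best known from neurons, had 25.6, 23.9 and 25.2 CPM in ER-bound scramble siRNA libraries, against 29.2, 26.9 and 27.2 CPM in whole-cell scramble siRNA libraries. Its ER-bound libraries were all lower, at -0.15 ± 0.045 SE (adjusted p = 0.00644), and with library totals the adjusted p was 0.171.

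Rab17 and Rab32 fell outside the rule for named genes, since both stayed under 5 CPM, and were chosen after their values were seen. Rab17, which acts in polarised transport in epithelial cells, had 1.92, 1.97 and 1.65 CPM in ER-bound scramble siRNA libraries, against 0.749, 0.653 and 0.752 CPM in whole-cell scramble siRNA libraries. Its levels were low, but the ER-bound libraries were all above the whole-cell ones, and its log2 fold of 1.31 ± 0.17 SE was the highest of the tested Rab genes with scramble siRNA (adjusted p = 2.13e-06). With Lsg1 siRNA the values were 1.87, 1.68 and 2.31 CPM in ER-bound RNA, against 0.689, 0.833 and 0.590 CPM in whole-cell RNA, and the log2 fold was 1.40 ± 0.17 SE. The remaining calls in the role were Rab11b, of the slow recycling route (0.19 ± 0.048 SE, adjusted p = 0.00257), and Rab12, of transferrin receptor turnover (0.19 ± 0.05 SE, adjusted p = 0.00265), and the call of Rab12 was lost with the offset (0.07, adjusted p = 0.266). Rab14 did not pass at -0.04 ± 0.032 SE, and with the offset it was called higher, at 0.16 (adjusted p = 0.000111).

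Of the 11 tested Rabs of late endosomes, lysosomes and autophagy, 4 were higher (Rab24, Rab32, Rab34 and Rab38) and 7 did not pass, with a median log2 fold of 0.098. Shares over all genes were 29.8% higher and 29.1% lower. With the GC and length offset, 1 was higher (background 27.5%) and 3 were lower (background 29.5%). Rab7 had 237, 238 and 232 CPM in ER-bound scramble siRNA libraries, against 228, 228 and 227 CPM in whole-cell scramble siRNA libraries. The ER-bound libraries lay just above the whole-cell ones, and the log2 fold of 0.05 ± 0.027 SE did not pass (adjusted p = 0.113), while with the offset it was -0.07 (adjusted p = 0.0391). Rab24, an unusual Rab linked to autophagy, had 27.6, 27.4 and 27.5 CPM in ER-bound scramble siRNA libraries, against 24.5, 22.2 and 23.0 CPM in whole-cell scramble siRNA libraries. The fractions did not overlap, at 0.24 ± 0.042 SE as log2 fold (adjusted p = 7.08e-05), but it was 0.003 with the offset (adjusted p = 0.965). Rab24 also shares 1258 exon bases on the other strand with Prelid1, which had 123511 reads over all libraries against 13707 for Rab24, and the strand setting of the counting is not given in the sources used here.

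Rab32, which with Rab38 sends enzymes to melanosomes and other lysosome-related organelles, had 1.47, 1.66 and 1.54 CPM in ER-bound scramble siRNA libraries, against 0.883, 1.10 and 1.01 CPM in whole-cell scramble siRNA libraries. The libraries did not overlap, at a log2 fold of 0.61 ± 0.14 SE (adjusted p = 0.000911). Rab38 had 3.01, 2.27 and 2.21 CPM in ER-bound scramble siRNA libraries, against 1.87, 1.69 and 2.00 CPM in whole-cell scramble siRNA libraries. It did not overlap either (0.42 ± 0.14 SE, adjusted p = 0.0132), but the call was lost without replicate 1 of ER-bound or replicate 2 of whole-cell scramble siRNA (adjusted p = 0.128 and 0.0729) and with the offset (adjusted p = 0.062). Rab34, of ciliogenesis and lysosome positioning, had a log2 fold of 0.14 ± 0.036 SE (adjusted p = 0.00275), and with the offset it was called lower, at -0.12 (adjusted p = 0.00694).

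Rabs of regulated secretion, the Rab3 proteins, Rab26, Rab27a, Rab37 and Rab44, gave 0 calls among 7 tested with either siRNA by edgeR, DESeq2 (background 56% with Lsg1 and 54.5% with scramble siRNA) and limma-voom (background 60.2% with Lsg1 and 58.5% with scramble siRNA). At an unadjusted edgeR p under 0.05 there were 0 with Lsg1 siRNA (background 63.8%) and 1 with scramble siRNA, Rab44 (background 62%). The median log2 fold was 0.006 with Lsg1 siRNA and 0.22 with scramble siRNA. With the GC and length offset these medians were -0.062 with Lsg1 siRNA and -0.019 with scramble siRNA, and 1 gene of the 7, Rab3d, was called lower with scramble siRNA (-0.20, adjusted p = 0.0179). Most of these genes had few reads. Rab27a had 22.0, 21.3 and 20.3 CPM in ER-bound scramble siRNA libraries, against 22.8, 19.9 and 20.3 CPM in whole-cell scramble siRNA libraries, with overlap and a log2 fold of 0.02 ± 0.055 SE (adjusted p = 0.816). Among ciliary Rabs and Rabs with a SOCS box, Rab23 had 58.7, 63.0 and 67.9 CPM in ER-bound scramble siRNA libraries, against 53.2, 53.7 and 54.4 CPM in whole-cell scramble siRNA libraries, all ER-bound libraries above all whole-cell ones (0.23 ± 0.043 SE, adjusted p = 0.000151). Rab28, of photoreceptor cilia, had 16.3, 15.1 and 14.4 CPM in ER-bound scramble siRNA libraries, against 19.4, 18.6 and 18.4 CPM in whole-cell scramble siRNA libraries. It was lower without overlap (-0.30 ± 0.053 SE, adjusted p = 9.92e-05), but with the offset its log2 fold was 0.16 (adjusted p = 0.0187) with Lsg1 siRNA and 0.05 (adjusted p = 0.456) with scramble siRNA.

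Paralogs allow a comparison that does not depend on how libraries are scaled, since the ratio of the read counts of 2 genes is taken within a library. In 9 pairs both genes had a mean of at least 5 CPM; their coding sequences were 73.1% to 78.5% identical, with identical runs of at most 38 bases. Rab2b and Rab6a also share exon bases with Tox4 and Mrpl48 on the other strand, and Rab4b with Gm21983 on the same strand. The change of each log2 ratio between fractions was tested over all 12 libraries by an exact two-sided permutation test within siRNA (400 permutations, smallest possible p 0.005), with adjustment over the 9 pairs. The pair Rab8a and Rab8b changed most. Rab8a had 8.98, 8.70 and 10.8 reads per read of Rab8b in ER-bound Lsg1 siRNA libraries and 8.22, 7.79 and 8.58 in ER-bound scramble siRNA libraries, against 4.18, 4.68 and 4.43 in whole-cell Lsg1 siRNA and 4.03, 4.23 and 4.09 in whole-cell scramble siRNA libraries. The lowest ER-bound ratio was above the highest whole-cell ratio, in all 6 lysate pairs. The log2 ratio was 1.04 higher in ER-bound RNA, a 2.06-fold change (exact permutation p = 0.005, adjusted p = 0.009), and 0.85 higher with the GC and length offset (adjusted p = 0.009).

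Rab5 paralogs also shifted against each other, and Rab5b was the member that fell behind. Rab5b had 0.313 ± 0.0192 and 0.314 ± 0.0103 reads per read of Rab5c in ER-bound RNA with Lsg1 and scramble siRNA, against 0.399 ± 0.0278 and 0.394 ± 0.0190 in whole-cell RNA (SD, n = 3 each). The log2 ratio changed by -0.34, with no overlap of the fractions (exact permutation p = 0.005, adjusted p = 0.009). The log2 ratio of Rab5a to Rab5b was 0.29 higher in ER-bound RNA and that of Rab2a to Rab2b 0.23 higher, also without overlap (adjusted p = 0.009 each, exact permutation test). With the offset these 3 changes were -0.18, 0.31 and 0.14 and still passed (adjusted p = 0.009, 0.009 and 0.020).

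The ratio of Rab4a to Rab4b was lower in ER-bound RNA, with a change of -0.23 on the log2 scale (adjusted p = 0.009, exact permutation test), with libraries of the fractions overlapping, and -0.21 with the offset (adjusted p = 0.009). That of Rab1a to Rab1b was lower too, with a change of -0.13 (adjusted p = 0.0225, exact permutation test), but the change was 0.14 with the offset (adjusted p = 0.015), and the call was lost without replicate 3 of either ER-bound group. The ratios of Rab5a to Rab5c (-0.05, adjusted p = 0.193), Rab11a to Rab11b (-0.07, adjusted p = 0.326) and Rab6a to Rab6b (-0.004, adjusted p = 0.945) did not pass the exact permutation test; with the offset they were 0.14, -0.20 and -0.12 and passed (adjusted p = 0.009, 0.020 and 0.0193). In a further exact permutation test, the fractions were exchanged only between libraries of 1 lysate (64 exchanges, smallest possible p 0.03125). There the ratio of Rab5a to Rab5c passed too (adjusted p = 0.0402). It went the same way in all 6 pairs, which is what gives the smallest possible p and is no separate result.

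**Figure D3:**
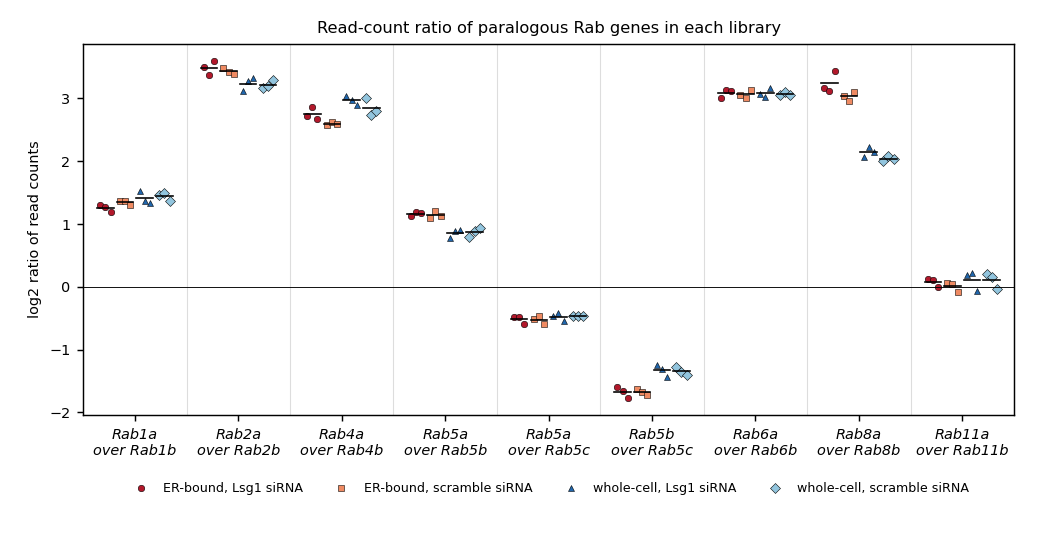
Log2 ratio of the read counts of 9 pairs of Rab paralogs in each of the 12 libraries, by group; black lines are means of 3 libraries. The pair Rab8a and Rab8b shows the widest gap between ER-bound and whole-cell libraries, 1.04 on the log2 scale, and Rab6a over Rab6b the narrowest, -0.004.

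The C-terminal patterns introduced with the sequences were set beside the folds with scramble siRNA as a description. Over all genes 29.8% were higher and 29.1% lower, or 27.5% and 29.5% with the GC and length offset. Of tested genes with a single cysteine, like Rab8a and Rab8b, 4 of 8 were higher and 2 lower (3 and 2 with the offset). Of those ending in a pair of cysteines, like Rab10, 5 of 13 were higher and 2 lower (2 and 4 with the offset), and of those with the pair before further residues, like Rab5b, 5 of 15 were higher and 1 lower (5 and 4 with the offset). Of those with cysteine, another residue and cysteine, like Rab4b, 2 of 18 were higher and 3 lower (2 and 5 with the offset). Differences between these patterns were not tested. Rab8a and Rab8b, whose folds were furthest apart among the paralogs compared, have the same pattern.

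The genes that load, switch and read Rab proteins were mostly lower in ER-bound RNA. With scramble siRNA, 6 of 49 exchange factor genes were higher and 31 lower (median log2 fold -0.25), 2 of 39 TBC genes were higher and 29 lower (median -0.30), and 3 of 43 effector genes were higher and 31 lower (median -0.33), beside 29.8% higher and 29.1% lower over all genes. With the GC and length offset the medians were -0.22, -0.29 and -0.22, with 29, 25 and 27 lower. With Lsg1 siRNA the medians were -0.20, -0.30 and -0.33. Sbf2, an exchange factor of the DENN family, averaged 38.9 ± 4.21 CPM in ER-bound RNA and 91.7 ± 3.73 CPM in whole-cell RNA (SD, n = 3 each), or -1.24 ± 0.058 SE as log2 fold (adjusted p = 4.19e-12). The TBC protein Tbc1d16 averaged 20.8 ± 1.15 CPM in ER-bound RNA and 36.4 ± 0.530 CPM in whole-cell RNA (SD, n = 3 each), or -0.81 ± 0.042 SE as log2 fold (adjusted p = 1.56e-11). Gcc2, a golgin tether of the trans-Golgi network, averaged 12.8 ± 1.42 CPM in ER-bound RNA and 39.6 ± 1.62 CPM in whole-cell RNA (SD, n = 3 each), or -1.63 ± 0.077 SE as log2 fold (adjusted p = 4.39e-12). All 3 were lower in ER-bound RNA and had the smallest p of their list.

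Of the 12 prenylation and recycling genes, 5 were higher (background 29.8%) and 5 lower (background 29.1%). The 5 higher ones code for proteins with membrane-spanning segments: Arl6ip5, Rabac1 and Praf2 of the PRA1 family, which act on prenylated Rabs at membranes, and the ER enzymes Rce1 and Icmt, which trim and methylate prenylated tails. Rabac1 averaged 87.3 ± 4.26 CPM in ER-bound RNA and 41.7 ± 1.81 CPM in whole-cell RNA (SD, n = 3 each), or 1.06 ± 0.044 SE as log2 fold (adjusted p = 9.56e-13). Arl6ip5 averaged 83.6 ± 2.16 CPM in ER-bound RNA and 39.5 ± 1.59 CPM in whole-cell RNA (SD, n = 3 each), or 1.08 ± 0.038 SE as log2 fold (adjusted p = 1.5e-13). The lower ones included Chm, Chml, Gdi2 and Rabif, which code for soluble proteins that escort Rabs, take them off membranes or bind their nucleotide-free form; the grouping into membrane and soluble proteins was made after the values were seen. Chm averaged 14.7 ± 0.917 CPM in ER-bound RNA and 24.2 ± 0.524 CPM in whole-cell RNA (SD, n = 3 each), or -0.72 ± 0.05 SE as log2 fold (adjusted p = 6.57e-10). With the GC and length offset Chm stood at -0.18 (adjusted p = 0.00236) and Chml, at -0.66 without it, at -0.18 (adjusted p = 0.052), while Rabac1 stood at 0.81 and Arl6ip5 at 0.93. Rabggta and Rabggtb, the transferase subunits, did not pass, at 0.06 (adjusted p = 0.186) and -0.04 (adjusted p = 0.335), but with the offset both were called lower, at -0.13 each (adjusted p = 0.0053 and 0.00142). The offset gave 5 higher (background 27.5%) and 6 lower (background 29.5%) of the 12. Among 54 tested small GTPases outside the Rab family, those of the Ras, Arf and Arl families among them, 25 were higher (background 29.8%) and 9 lower (background 29.1%), with a median of 0.12. Among the 8 ER lumen chaperones all were higher (median 0.91, lowest 0.56). Without the offset, Rab17 and Rab32 alone of the Rab genes reached the range of the chaperones with scramble siRNA. With it the lowest chaperone stood at 0.60, and Rab17 (1.08) and the Golgi Rab Rab30 (0.85, adjusted p = 2.03e-05) reached that range while Rab32 (0.51) did not. Rab30, which had 2.99 CPM on average and a log2 fold of 0.08 without the offset (adjusted p = 0.628), was chosen after its values were seen, as was Rab3d above.

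**Figure D4:**
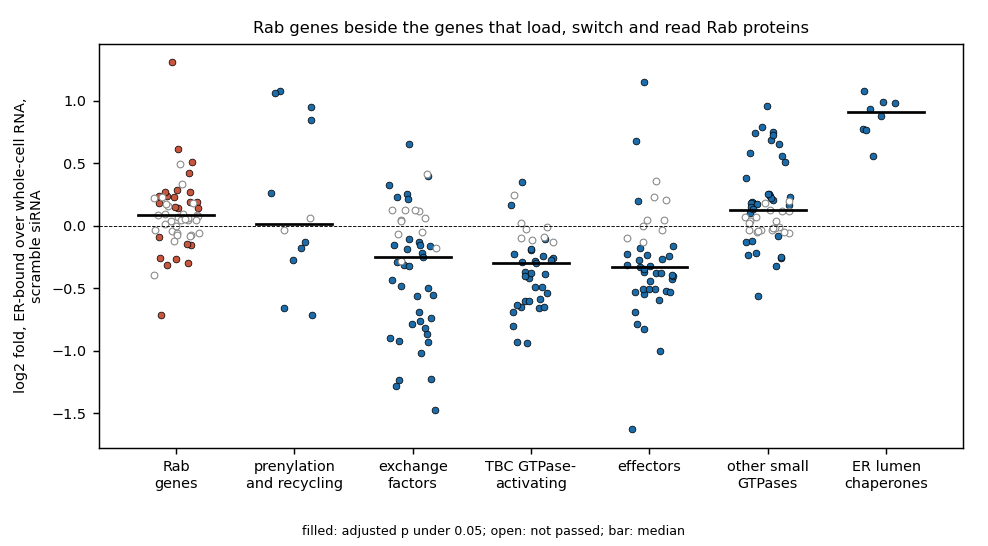
Log2 fold, ER-bound over whole-cell RNA with scramble siRNA, of each tested Rab gene and of each tested gene of 6 other lists; filled points passed an adjusted p under 0.05 and bars are medians. Rab genes (median 0.084) lie around 0, between the lower lists of exchange factors, TBC proteins and effectors (medians -0.25 to -0.33) and the ER lumen chaperones (median 0.91).

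The second comparison asked whether Lsg1 siRNA altered Rab transcripts in either fraction. No Rab gene passed edgeR's test in ER-bound RNA, where 4.01% of all genes did (710 of 17702), or in whole-cell RNA, where 0% did. At an unadjusted p under 0.05 there were 4 Rab genes in ER-bound RNA (background 17.2%) and 0 in whole-cell RNA (background 4.13%). DESeq2 also called 0 Rab genes in both fractions, beside 4.06% of all genes in ER-bound and 0.0282% in whole-cell RNA, and so did limma-voom, beside 4.55% of all genes in ER-bound and 0% in whole-cell RNA. The lowest adjusted p among Rab genes was 0.205 in ER-bound RNA. Among the 37 Rab genes with a mean of at least 5 CPM, log2 folds ranged from -0.16 (Rab29) to 0.18 (Rab13) in ER-bound RNA and from -0.15 (Rab4b) to 0.097 (Rab33b) in whole-cell RNA, with median SEs of 0.041 and 0.043. Libraries of the siRNAs did not overlap for 10 of 54 Rab genes in ER-bound RNA (background 21.5%) and for 2 in whole-cell RNA (background 10.4%).

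The Rab genes with the smallest p in ER-bound RNA were as follows. Rab40c, a SOCS-box Rab of ubiquitin ligase complexes, had 31.1, 31.9 and 32.4 CPM with Lsg1 siRNA, against 29.4, 28.5 and 30.6 CPM with scramble siRNA. These libraries did not overlap, and its log2 fold was 0.11 ± 0.043 SE (adjusted p = 0.205). Rab38 had 1.99, 2.04 and 2.01 CPM with Lsg1 siRNA, against 3.01, 2.27 and 2.21 CPM with scramble siRNA, all lower with Lsg1 siRNA (-0.30 ± 0.13 SE, adjusted p = 0.248). Rab3a, of synaptic vesicle release, had 3.27, 3.27 and 2.43 CPM with Lsg1 siRNA, against 4.01, 3.63 and 3.17 CPM with scramble siRNA, with overlap (-0.27 ± 0.12 SE, adjusted p = 0.269). In whole-cell RNA the smallest p belonged to Rab4b, with 4.77, 5.29 and 5.75 CPM with Lsg1 siRNA, against 5.27, 6.10 and 6.19 CPM with scramble siRNA. Its libraries overlapped, at -0.15 ± 0.084 SE (adjusted p = 1), and Rab37 (0.36 ± 0.22 SE) and Rab38 (0.22 ± 0.14 SE) followed.

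The interaction asked whether the ER-bound share of a gene differed between the siRNAs. No Rab gene passed it by edgeR, DESeq2 or limma-voom, where 0.0226% of all genes did by edgeR (4 of 17702), 0.102% by DESeq2 and 0.0282% by limma-voom, and the lowest adjusted p was 0.631. 1 Rab gene, Rab38, had an unadjusted p under 0.05 (background 6.89%). The difference of its log2 folds, Lsg1 minus scramble siRNA, was -0.52 ± 0.19 SE, from values that were higher in ER-bound RNA with scramble siRNA and overlapped with Lsg1 siRNA, 1.99, 2.04 and 2.01 CPM in ER-bound RNA, against 2.19, 1.92 and 2.43 CPM in whole-cell RNA. Rab21 (0.09 ± 0.056 SE) and Rab20 (-0.27 ± 0.17 SE) had the next smallest p. A p above the threshold does not show that the siRNAs act alike. Changes of the size of the SEs given above, and larger ones, could have been missed. Rab38, at -0.52 ± 0.19 SE, did not pass.

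**Figure D5:**
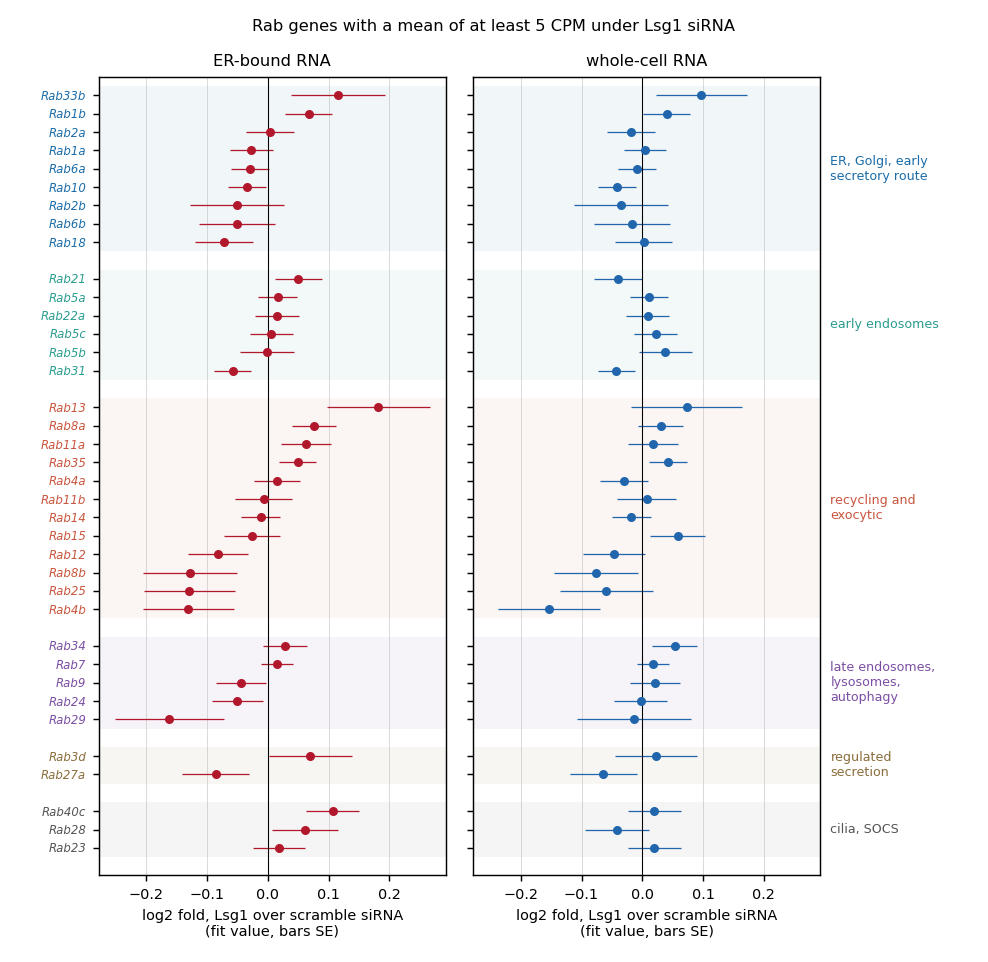
Log2 fold, Lsg1 over scramble siRNA, of the 37 Rab genes averaging at least 5 CPM, in ER-bound RNA (left) and whole-cell RNA (right); bars are the SE of the fit. All points lie between -0.16 and 0.18, and none passed an adjusted p under 0.05.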

How the data were processed

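The members, lists and tests were chosen with earlier results of these data known. Poly-A libraries were made with a directional kit, per the labels' protocols. The submitters' processing notes name STAR 2.7.9a as aligner, GRCm39 as build and HTSeq 0.11.2 as counter. The authors deposited raw counts per gene for 55416 IDs. Neither the strand setting nor the gene annotation of that counting is given in the sources used here. Summary lines were left out of the tests. Reads in no feature were 2.65% to 5.26% of a library's counts, with the summary lines included in the total. Of the IDs, 94.0% matched a name in GENCODE M21 (GRCm38), from which lengths, GC content and sequences come. Levels per kb use that annotation's principal coding transcript.

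Counts were scaled by TMM, filtered with filterByExpr (17702 genes left) and tested with edgeR 4.0.16 in R 4.3.3 (quasi-likelihood F-test, prior count 2, biological coefficient of variation 4.42%, residual degrees of freedom 8), with 1 mean per group over 12 libraries. CPM are TMM-scaled. Adjusted p-values are Benjamini-Hochberg over all tested genes, with a threshold of 0.05. Log2 paralog ratios had 2 reads added to each count. Named Rab genes were the 6 highest and 6 lowest log2 folds with scramble siRNA among called genes that reached 5 CPM in a fraction and moved alike in 3 pairs, the 3 smallest p in each siRNA test and the interaction, the most abundant of each role and the paralogs past the ratio test; other called genes are given by log2 fold. For comparisons between fractions, equal replicate numbers share a lysate, per the series' design text; deviations of such libraries from their group means correlated at 0.0930, 0.00975 and 0.138 with scramble siRNA and 0.0821, 0.00241 and 0.0904 with Lsg1 siRNA. Alternatives were library totals or DESeq2 size factors as scaling, no or a stricter filter (2 CPM in 3 libraries), DESeq2 1.42.0, limma-voom (limma 3.58.1), a fit without the other groups, a block for replicates, 141 genes (mitochondrial, ribosomal protein) taken out, a GC and length offset (splines with 5 degrees of freedom), each library left out, and, chosen after seeing the data, 2 libraries left out together and the offset for the paralog ratios. The edgeR test was run on simulated counts for the fractions with scramble siRNA, for the siRNAs in each fraction and for the interaction. The outcome of these runs is not given here. Python 3.11.15 and matplotlib 3.10.9 made the figures.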

Additional observations from a re-analysis of the deposited data

How the results depend on the processing

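No Rab gene was called for either siRNA comparison or the interaction under any alternative run. The number called lower between fractions was 4 with library totals for each siRNA, and 15 with scramble and 16 with Lsg1 siRNA with the GC and length offset. With the offset, the log2 fold changed sign for 16 of the 54 tested Rab genes with Lsg1 siRNA and for 18 with scramble siRNA. Of these, 3 with Lsg1 siRNA (Rab1b, Rab28 and Rab34) and 2 with scramble siRNA (Rab1b and Rab34) were called in opposite directions without and with it, and 7 with Lsg1 and 10 with scramble siRNA were called in neither. Among the Rab genes described, those with scramble siRNA were Rab14 (0.163, and 0.040 with library totals), Rab1b (-0.112), Rab5c (-0.169), Rab7 (-0.069), Rab22a (0.019), Rab27a (-0.028), Rab28 (0.053) and Rab34 (-0.119), with Rab3a, Rab20, Rab25 and Rab29 also among the 18. With Lsg1 siRNA they were Rab1b (-0.086), Rab5c (-0.187), Rab7 (-0.076), Rab14 (0.156), Rab18 (0.469), Rab24 (-0.047), Rab28 (0.164) and Rab34 (-0.141), with Rab3a, Rab29 and Rab40c also among the 16. With each library left out, Rab27a ranged from -0.028 to 0.056. With the offset, the log2 ratio of Rab1a to Rab1b was 0.137 and that of Rab5a to Rab5c 0.137, and those of Rab6a to Rab6b (-0.115) and Rab11a to Rab11b (-0.195) passed. With each library left out, Rab1a to Rab1b ranged from -0.147 to -0.096 and Rab6a to Rab6b from -0.021 to 0.018. With a replicate block, Rab5a to Rab5c (-0.050) passed (adjusted p = 0.0402, exact permutation test), and the block changed no other paralog call. In the fit with the block, 18 Rab genes were higher with scramble siRNA (share over all genes not given for this fit). The cause of these changes was not tested.

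Over all genes, Lsg1 against scramble siRNA in whole-cell RNA gave 26 calls without a filter, 5 with DESeq2, 2 with only the groups compared, 5 with the replicate block, 1 with the offset, 4 without the 2 libraries that stand apart and 0 to 3 with each library left out. In ER-bound RNA it gave 375 with only the groups compared, 1178 with the replicate block and 290 to 854 with each library left out. The interaction gave 59 without a filter, 18 with DESeq2, 13 with the block and 3 to 8 with each library left out. For the siRNA comparisons replicates share only a number: deviations of same-numbered libraries correlated at 0.174, 0.00727 and 0.144 in ER-bound and 0.0370, 0.0391 and 0.0970 in whole-cell RNA, and not every library correlated best with its own number. Rab genes under 1 CPM, 7 of the 54 tested, rest on few reads, and 3 replicates limit the precision of all values.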
